A study of Mus musculus with 16 samples.

Results

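The transcripts described here were the 144 entries, of 51024 listed in every library, whose identifier begins with MSTRG. That prefix is the one the assembler StringTie gives to transcript models it builds from reads, so these entries carry no name from a public catalogue. They were chosen by that prefix alone. The other listed entries carried identifiers of NONCODE, a catalogue of long non-coding RNAs (44554), or of Ensembl (6326). The assembled models made up 0.282% of the list.

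Long non-coding RNAs are transcripts without a long open reading frame. Liver makes many of them, from intervals between coding genes, from introns, from the opposite strand of coding genes and from decayed gene copies, and some are known to act on the transcription or the stability of neighbouring messages. A transcript model rebuilt from short reads can also join neighbouring genes, or hold a retained intron or an unspliced stretch of a coding gene. The position of a model against coding genes is therefore part of its description.

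The study sequenced RNA from the livers of C57BL/6J mice at postnatal day 21, in 4 groups of 4 libraries each. One group had ordinary feed, one had high-fat feed, one had high-fat feed with resveratrol by gavage at 100 mg/kg per day, and one had high-fat feed with metformin by gavage at 200 mg/kg per day. Resveratrol is a polyphenol found in grapes, metformin is a biguanide that lowers blood glucose, and no group had either drug on ordinary feed. The labels name gavage only for the drug groups, so drug and gavage cannot be told apart. The labels do not say how long each diet or drug was given, nor which libraries came from separate animals or litters, so p-values measure the spread between these libraries only. Each title carries 2 numbers whose meaning is not given. The first is 7 in all 4 high-fat libraries and in no library of another group. On ordinary feed it is 1 in 3 of the 4 libraries. Every comparison with the high-fat group therefore differs in that number as well. Libraries are numbered 1 to 4 within a group, as names only.

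Sequences are shown first for the model with the largest difference between high-fat and ordinary feed, MSTRG.16066.11, because its interval holds a short annotated gene that has copies elsewhere. No genome sequence was used here, so the letters come from the GENCODE M21 transcripts and, for promoters, from RefSeq. MSTRG.16066.11 lies at chr16:11143906-11144285 (GRCm38), inside an intron of Zc3h7a, a zinc-finger RNA-binding protein gene, and holds all 57 bases of Gm23935, a GENCODE gene of the class miRNA, at chr16:11144125-11144181 on the plus strand. Gm24245 at chr4:139338304-139338360 (plus strand) and Gm24270 at chr9:56223715-56223771 (minus strand) have 0 differences from it, and Gm24187 at chr13:9834469-9834525 (minus strand) has 1, G11A, counted from the 5′ end with the base of Gm23935 first. Capitals mark that base. Reads from the identical copies cannot be assigned to one of them by these letters. Only these GENCODE genes were compared. Further copies in the genome, for instance in ribosomal RNA genes, were not searched for, and the class miRNA is the annotation's own.
Gm23935: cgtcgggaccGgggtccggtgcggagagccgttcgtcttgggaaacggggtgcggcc
Gm24245: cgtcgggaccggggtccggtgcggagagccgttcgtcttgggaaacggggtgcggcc
Gm24270: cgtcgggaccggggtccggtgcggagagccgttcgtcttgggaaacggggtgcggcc
Gm24187: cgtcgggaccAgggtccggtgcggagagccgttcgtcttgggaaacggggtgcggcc

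A pair of promoters is shown because the intervals of the models over them reach past the coding gene's own start and hold its promoter. The strand of the models is not given, so the end at which they begin is not known. RefSeq promoter windows (GRCm38.p6, 250 bases before to 50 after a start) lay wholly inside the intervals of 33 of the 144 models. Insig2 encodes a protein of the endoplasmic reticulum that holds back the activation of cholesterol and fatty acid synthesis. Its model MSTRG.1548.1 reached 77 bases beyond the window at chr1:121332540-121332839 (minus strand). That interval held 3 Insig2 windows, of which only this outermost one is shown. Crp encodes C-reactive protein, secreted by liver in inflammation, and its model MSTRG.2406.1 reached 534 bases beyond the window at chr1:172697806-172698105 (plus strand). A script searched both strands for the TATA box, spelled TATAAA. The CCAAT box, spelled as its name, and the E-box, spelled CACGTG, were searched in the same way, and none of the matches overlapped. Capitals mark the matches. The Insig2 window shown held 3 CCAAT boxes and the Crp window 1 TATA box, with no match to the other motifs. Of all 32851 windows in the table, 13.6% held a TATA box, 37.4% a CCAAT box and 7.15% an E-box.
Insig2: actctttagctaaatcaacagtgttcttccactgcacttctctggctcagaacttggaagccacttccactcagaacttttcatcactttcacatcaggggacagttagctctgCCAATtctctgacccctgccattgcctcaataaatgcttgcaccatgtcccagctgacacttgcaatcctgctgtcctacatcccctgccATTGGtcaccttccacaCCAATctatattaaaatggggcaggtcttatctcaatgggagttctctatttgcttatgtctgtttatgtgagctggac
Crp: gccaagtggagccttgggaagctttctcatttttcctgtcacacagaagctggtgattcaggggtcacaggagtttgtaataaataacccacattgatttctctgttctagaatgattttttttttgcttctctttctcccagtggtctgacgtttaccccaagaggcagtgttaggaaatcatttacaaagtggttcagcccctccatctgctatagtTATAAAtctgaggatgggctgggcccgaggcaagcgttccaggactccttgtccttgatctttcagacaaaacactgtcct

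Values are deposited FPKM, the reads of a transcript scaled by its listed length and by the reads of the library. Library totals estimated from the steps of the values were 17249328 to 31113739 reads, of which 3032660 to 6263572 lay on listed transcripts and 9888 to 17751 on the assembled models. The models therefore took 0.225% to 0.418% of the listed reads. High-fat library 4 stood apart: its median ratio to the average library was 0.691, against 0.885 to 1.15 in the other 15, and 4274 features reached 1 FPKM in it, against 5149 to 6492. Its 9 listed transcripts at the ribosomal RNA locus of chromosome 17 took 22.6% of listed reads, against 8.80% to 16.1% elsewhere. Coding genes are not on the list as such, and the marker check counted listed transcripts at only 2 of 10 hepatocyte marker genes, Foxa2 and Ttr. It did not count MSTRG.9776.37, whose interval spans another of them, Serpina1a. Nor did it count MSTRG.25288.3, which lies inside a further one, Hnf4a. The positions of the blocks of these models are not given. The tissue label thus could not be checked on the defining markers. In whole liver, fewer cells of a type and less RNA per cell cannot be told apart.

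The assembled models were better covered than most of the list. Their median level, as the mean over 16 libraries, was 1.60 FPKM, against 0.0856 FPKM for all listed transcripts, and 121 of the 144 (84.0%) reached 1 FPKM in at least 4 libraries, the condition for testing, against 14.6% of the list. A model can be assembled only where reads exist, so this difference is tied to how the models came to be listed. Among the transcripts that met the condition the medians were close, 1.74 FPKM for the models and 1.57 FPKM for all. Depth per model was modest: the median over models of the median read number was 27.25, and 38 models had a median under 10 reads. In 103 models reads were present in all 16 libraries, and each library listed 14 to 20 models at 0.

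**Figure D1:**
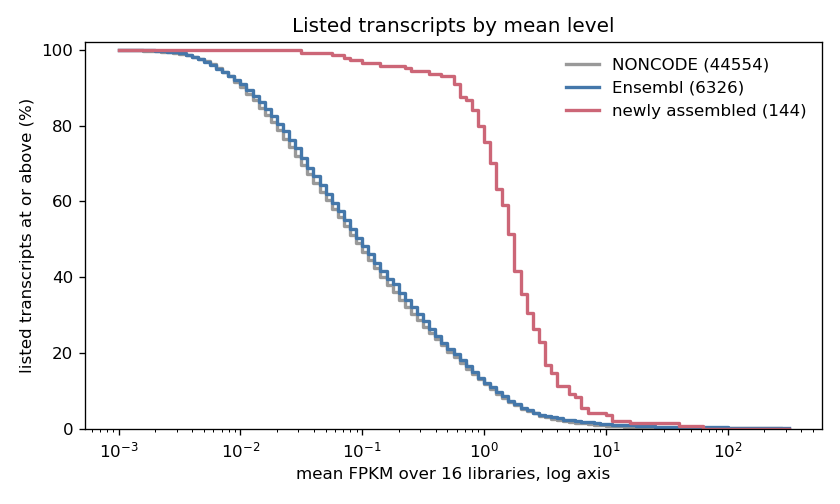
Share of listed transcripts (vertical axis, percent) whose mean FPKM over 16 libraries is at or above the value on the horizontal log axis, for the 144 newly assembled, 6326 Ensembl and 44554 NONCODE transcripts. The curve of the assembled models stays high up to about 1 FPKM, while those of the catalogue transcripts have fallen by then and lie on each other.

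A few models held much of the signal: the top 2 took 24.8% and the top 10 took 42.3% of the summed mean FPKM. MSTRG.9776.37 was the highest, at 62.7 FPKM (chr12:103821601-103863579), a model of 705 bases that spans Serpina1a and reaches Serpina1b, genes for alpha-1-antitrypsin, a protease inhibitor secreted by hepatocytes. Its values were 43.7, 69.2, 44.6 and 45.9 FPKM on ordinary feed, 47.7, 66.7, 45.9 and 67.9 on high-fat feed, 62.9, 99.9, 81.0 and 77.0 with resveratrol, and 65.2, 70.0, 60.0 and 55.8 with metformin. The highest 3 values were resveratrol libraries, but the groups overlapped, and no comparison passed the test (lowest adjusted p = 0.188 by limma, resveratrol against ordinary feed, 0.65, SE 0.21 on the log2 scale). Each library value rested on 532 to 1688 reads.

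MSTRG.21812.2 came next at 38.0 FPKM, a 694-base model over 65 kb of chromosome 19 that spans Tctn3, a ciliary gene, and reaches Aldh18a1, of proline synthesis, and Entpd1, an ectonucleotidase. MSTRG.55.1 and MSTRG.55.3, at 15.3 and 10.7 FPKM, are models of 795 and 794 bases that start 1 base apart in an intron of Sntg1, a syntrophin gene. MSTRG.20857.2 (11.2 FPKM, 4530 bases, chr19:4061725-4066368) lies 2.16 kb from Gstp3, a glutathione transferase gene, and stood between 8.67 and 15.2 FPKM in the 16 libraries. Inside its interval the catalogue transcript NONMMUT033452.2 averaged 482 FPKM and was called lower on high-fat feed (-0.45, SE 0.14, adjusted p = 0.0475 by limma). NONMMUT033453.2 and NONMMUT033454.2, which also overlap it, were not called. MSTRG.32561.5 (5.87 FPKM) spans Ugt2a3, a gene of the UDP-glucuronosyltransferases, which conjugate bile acids, steroids and drugs. None of these 5 assembled models was called in any comparison by limma, with adjusted p of 0.116 (MSTRG.55.1, high fat against ordinary feed) or more.

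High models could also be listed at 0 in single libraries. MSTRG.29534.30 (9.16 FPKM), which spans 3 pseudogenes of the major urinary proteins, pheromone carriers made in liver, was at 15.6, 0, 7.48 and 0 FPKM on ordinary feed and at 0, 8.77, 0 and 11.1 on high-fat feed. It was at 18.6, 13.8, 43.3 and 0 with resveratrol and at 0, 7.03, 0 and 21.0 with metformin, so every group held both absent and high values. MSTRG.1385.1 (6.17 FPKM), 134 kb from St8sia4, was at 0 in high-fat library 1 and resveratrol library 1 and between 3.88 and 8.79 FPKM in the other 14. Neither model was called in any comparison.

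In structure the models differed from the rest of the list. Every one of the 144 had a listed length shorter than its interval, so that all consist of more than 1 block, against 36.8% of all listed transcripts. The share was 54.9% of the Ensembl and 34.0% of the NONCODE transcripts. Whether assembled models of 1 block were left out when the list was made is not known here. The median length was 794.5 bases and the median interval 7755.5 bases. In 54 models the listed length covered under 5% of the interval, and in 18, MSTRG.16066.11 and MSTRG.20857.2 among them, over 90%. They fell into 112 loci by assembler number, of which 94 held 1 model and 18 held 2 or more (50 models).

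By position alone, with strand not used, 97 models (67.4%) overlapped a GENCODE coding gene, against 51.2% of all listed transcripts. Among the transcripts that met the condition for testing the order was the other way, 66.9% of the models against 77.9% of all. Intervals of the models were also longer, with a median of 7755.5 bases against 2087 for all listed transcripts. Of the 97 overlapping models, 30 held a whole coding gene inside their interval and 37 lay inside a gene with no coding-gene exon in the interval. Another 16 lay inside one and touched exons, and 14 crossed a gene's end. The other 47 were intergenic, 12 of them within 5 kb of a coding gene. With RefSeq gene models 98 overlapped, 93 of them the same models. Median levels were 1.66 FPKM for the overlapping and 1.24 FPKM for the intergenic models. Models that cross a gene's end had a median of 2.29 FPKM and those that hold a whole gene 1.30 FPKM. High-fat calls, defined below with the tests, fell in each of the broad classes: 4 higher and 6 lower among the 81 overlapping models tested, and 3 higher and 3 lower among the 40 intergenic ones tested, where 2.83% of all tested features were called higher and 11.8% lower.

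The models were unevenly placed: 24 lay on chromosome 8 and 21 on chromosome 4. On chromosome 8, 18 models of 7 loci lay within 894 kb (19695526 to 20589259), over a stretch that GENCODE fills with Gm15319, Gm31371, 4930467E23Rik and their pseudogenes, and 13 models of the list hold the whole of Gm15319. Of these 18, 12 met the condition for testing, their mean levels ran from 0.0778 to 2.49 FPKM, and 0 were called for high-fat feed by limma (log2 differences from -0.56 to 0.01), where 14.6% of all tested features were called. On chromosome 4, groups of 3 or 4 models lay at Mup11 and Mup12, at Pramef17, at the zinc-finger genes Zfp981, Zfp992 and Zfp993, and at Gm21411; each group had 2 to 4 models tested and 0 called. Near-identical genes and pseudogenes share reads, so the division of reads among such models is uncertain.

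Models of 1 locus often traded places between libraries. At the locus over Tctn3, MSTRG.21812.2 stood between 21.2 and 67.4 FPKM in 15 libraries while MSTRG.21812.1, of 655 bases, was at 0. In ordinary-feed library 3 this was turned round, with MSTRG.21812.1 at 45.5 and MSTRG.21812.2 at 0.274 FPKM. The sum over the locus, 21.2 to 67.4 FPKM, showed nothing unusual in that library. At Gm15319, MSTRG.40202.1 and MSTRG.40202.2 replaced each other in the same way, and the sum stayed between 1.09 and 2.22 FPKM.

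MSTRG.3786, a locus far from coding genes on chromosome 10 (357 kb from Zwint), was listed above 0 in only 4 of 16 libraries, 1 in each group, and in each of them by a single model. MSTRG.3786.3 was at 24.7 FPKM in ordinary-feed library 4, MSTRG.3786.2 at 11.4 in high-fat library 2, and MSTRG.3786.1 at 11.9 in resveratrol library 2 and 3.18 in metformin library 3. Across the 18 loci with several models, 14 had a different leading model in some libraries. The coefficient of variation over 16 libraries had a median of 32.0% for the locus sum and 48.6% for the highest model, and was lower for the sum in 12 of the 18.

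**Figure D2:**
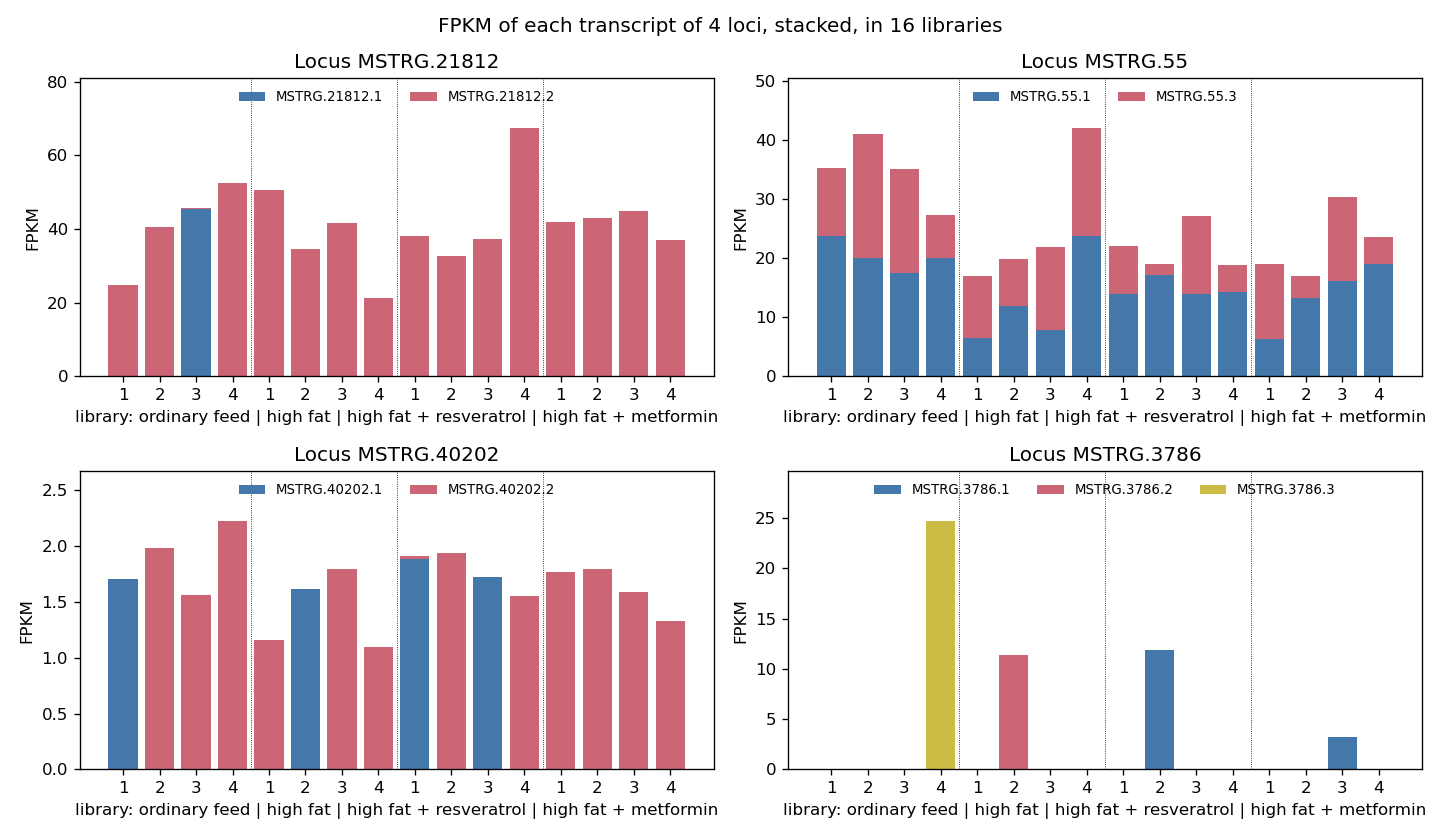
FPKM (vertical axis) of each model of 4 loci, stacked in each of the 16 libraries (horizontal axis, in group order, dotted lines between groups). At MSTRG.21812 and MSTRG.40202 one model gives nearly all of the FPKM in a library and the other gives it elsewhere, both models of MSTRG.55 are above 0 in each library, and MSTRG.3786 is above 0 in 4 libraries only.

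A test over all 4 groups found 8 of the 121 tested models to differ. The test was limma's moderated F on log2(FPKM + 1) with Benjamini-Hochberg adjustment over all 7413 tested features, and a feature is said to be called where the adjusted p is below 0.05. The 8 were MSTRG.17600.1, MSTRG.5260.1, MSTRG.21777.1, MSTRG.25288.3, MSTRG.20388.1, MSTRG.9831.1, MSTRG.6917.1 and MSTRG.16066.11, with adjusted p from 0.0262 to 0.0494. That is 6.61% of the models, against 3.13% of all tested features called. The count fell to 0 without ordinary-feed library 2 or 3, to 2 without high-fat library 3 or resveratrol library 1, to 4 without ordinary-feed library 1, high-fat library 2 or metformin library 4, and to 5 without metformin library 1 or resveratrol library 2 or 3.

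**Figure D3:**
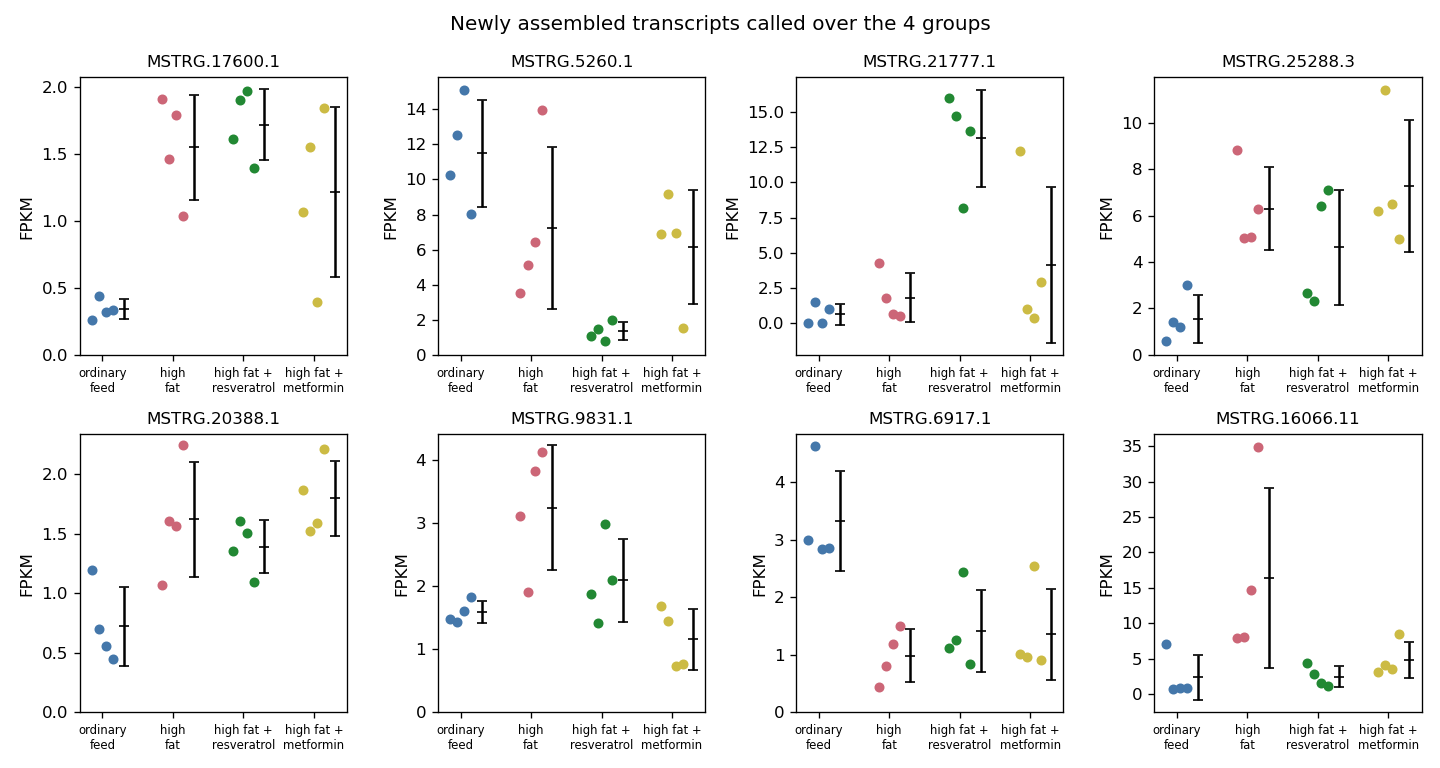
FPKM (vertical axis) of the 8 models called over the 4 groups, 1 point per library, with the group mean and SD (n = 4) as a bar beside the points. MSTRG.17600.1 and MSTRG.25288.3 are low on ordinary feed, MSTRG.6917.1 is high there, and MSTRG.5260.1 and MSTRG.21777.1 set the resveratrol libraries apart from ordinary feed.

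High-fat against ordinary feed compared the groups without a drug. The first number of the title differed between them too, so diet and whatever that number marks cannot be told apart. Of the 121 tested models 16 were called (13.2%, against 14.6% of all tested features), so the share was near the background. Higher on high-fat feed were 7, against 2.83% of all features called higher, and lower were 9, against 11.8% called lower. The 4 values of the groups did not overlap in 23 models, 10 higher and 13 lower (19.0%, against 20.9% of all features). Differences on the log2(FPKM + 1) scale, which understates the change of low transcripts, had a median of -0.06 over the tested models and -0.16 over all tested features.

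Among the models higher on high-fat feed, MSTRG.16066.11 in Zc3h7a had the largest difference. Its values were 7.12, 0.668, 0.816 and 0.851 FPKM on ordinary feed and 7.94, 8.08, 14.6 and 34.9 FPKM on high-fat feed. With resveratrol they were 4.32, 2.86, 1.51 and 1.12, and with metformin 3.16, 4.05, 3.47 and 8.48. High-fat values were all above the ordinary-feed values, although ordinary-feed library 1 came close to the lowest of them.

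The difference was 2.49 (SE 0.53, adjusted p = 0.0116 by limma), and without high-fat library 4 it was 2.06 (adjusted p = 0.0305). MSTRG.16066.12, listed with the same interval and the same length of 350 bases, was not called (-0.27, SE 0.51), and the sum of both was (1.69, SE 0.44, adjusted p = 0.0225). The catalogue transcript over the same start, NONMMUT025494.2, stood at 43.9 FPKM on average and at 145 in high-fat library 4, and was not called (0.65, SE 0.46). The ribosomal RNA locus share was highest in that library too; it was 10.0% to 12.9% in high-fat libraries 1 to 3 and 13.4% to 14.2% on ordinary feed, and its part in the difference was not tested.

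MSTRG.25288.3 lies inside Hnf4a, the gene of a nuclear receptor that governs hepatocyte identity, at chr2:163514694-163519613, and overlaps the antisense gene Hnf4aos. Ordinary-feed values were 0.593, 1.41, 1.18 and 3.01 FPKM and high-fat values 8.85, 5.03, 5.08 and 6.29 FPKM. With resveratrol the model stood at 2.68, 2.31, 6.44 and 7.10 and with metformin at 6.20, 11.4, 6.52 and 5.02 FPKM. All 4 high-fat and all 4 metformin values exceeded every ordinary-feed value, while resveratrol values fell into a low and a high pair.

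The high-fat difference of MSTRG.25288.3 was 1.57 (SE 0.34, adjusted p = 0.0117 by limma). NONMMUT110083.1, a catalogue transcript whose interval contains it, was also higher on high-fat feed (1.13, SE 0.29, adjusted p = 0.0231), whereas the Ensembl transcripts of Hnf4aos, summed, were not called (0.05, SE 0.33). Since strand was not used, reads from Hnf4a introns and from Hnf4aos cannot be told apart here.

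MSTRG.17600.1, an intergenic model of 438 bases at chr17:15303583-15306910, 60.4 kb from the Notch ligand gene Dll1, was low in all 4 ordinary-feed libraries. Its values there were 0.265, 0.445, 0.326 and 0.340 FPKM, against 1.91, 1.47, 1.80 and 1.04 on high-fat feed, 1.62, 1.91, 1.97 and 1.40 with resveratrol and 1.07, 1.55, 0.396 and 1.85 with metformin. Except for metformin library 3, every library on high-fat feed, with or without a drug, was above the highest ordinary-feed value. The high-fat difference was 0.91 (SE 0.18, adjusted p = 0.00849 by limma), the smallest adjusted p among the models, on 2 to 20 reads per library.

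The remaining higher calls were smaller. MSTRG.25145.1 in an intron of Cnbd2 rose by 1.31 (SE 0.37, adjusted p = 0.0315 by limma). It stood between 0.583 and 1.56 FPKM on ordinary feed and between 2.26 and 11.9 on high-fat feed. Without high-fat library 4, which held the 11.9, it was not called (0.89, adjusted p = 0.0675 by limma). The call was lost in 5 of the 8 fits without 1 library of these groups. MSTRG.9831.1, an intergenic model over the pseudogene Gm9661, rose by 0.68 (SE 0.20), MSTRG.4946.1 at exons of R3hdm2 by 0.68 (SE 0.16) and MSTRG.20388.1, 2.39 kb from Gm4841, by 0.61 (SE 0.15). In the last pair 1 ordinary-feed library overlapped the high-fat values, at 1.81 FPKM for MSTRG.4946.1 and 1.19 FPKM for MSTRG.20388.1. Of the 8 fits without 1 library of these groups, MSTRG.9831.1 lost its call in 5, MSTRG.20388.1 in 2 and MSTRG.4946.1 in 0.

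Among the models lower on high-fat feed, MSTRG.21790.19, a 770-base model in an intron of Cyp2c38, a cytochrome P450 gene of the family that oxidizes drugs and fatty acids, had the largest difference. It was at 4.67, 6.07, 2.54 and 1.74 FPKM on ordinary feed and at 1.60, 0.501, 1.14 and 0.178 on high-fat feed. With resveratrol it was at 0.859, 1.19, 0.624 and 1.13, and with metformin at 1.05, 2.14, 1.07 and 0.701 FPKM. The high-fat difference was -1.33 (SE 0.30, adjusted p = 0.0131 by limma), with no overlap between those 2 groups.

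MSTRG.6917.1, at chr11:86812040-86815986, 4.29 kb from the helicase gene Dhx40, was high on ordinary feed, at 3.00, 4.62, 2.84 and 2.85 FPKM, and low on high-fat feed, at 0.433, 0.814, 1.19 and 1.495. Resveratrol libraries were at 1.11, 1.26, 2.44 and 0.835, and metformin libraries at 1.01, 0.967, 2.54 and 0.906. No library of the 3 high-fat groups reached the ordinary-feed values, though 1 resveratrol and 1 metformin library came near. The high-fat difference was -1.14 (SE 0.24, adjusted p = 0.0105 by limma). More abundant catalogue transcripts overlap its interval, NONMMUT011311.2 at 58.9 and NONMMUT011310.2 at 41.8 FPKM on average. Both were also called lower by limma (-1.68, SE 0.36, adjusted p = 0.0117, and -3.34, SE 0.76, adjusted p = 0.0136). NONMMUT011314.2, inside the same interval, was not called (-0.18, SE 0.54).

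MSTRG.41191.12 in an intron of Palld, a gene of the actin cytoskeleton, stood at 4.33 to 5.92 FPKM on ordinary and 2.05 to 3.52 on high-fat feed (-0.81, SE 0.18, adjusted p = 0.0126 by limma). MSTRG.1548.1, the model over Insig2 whose promoter is shown above, stood at 2.29, 2.62, 2.91 and 2.43 FPKM on ordinary feed and at 0.985, 1.79, 2.11 and 0.870 on high-fat feed. It was at 2.11, 2.70, 3.08 and 1.72 with resveratrol and at 1.00, 1.76, 1.28 and 1.24 with metformin, where all values lay below those of ordinary feed. The high-fat difference was -0.58 (SE 0.17, adjusted p = 0.036 by limma) and the metformin difference from ordinary feed -0.63 (SE 0.17, adjusted p = 0.0789).

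Inside the same interval NONMMUT002394.2, a catalogue transcript of 756 bases, was far more abundant, at 125 FPKM on average, and was also lower on high-fat feed (-1.28, SE 0.34, adjusted p = 0.0257 by limma). Without high-fat library 4 the model over Insig2 was not called (-0.46, adjusted p = 0.0991 by limma). Its call was lost in 6 of the 8 fits without 1 library of these groups. MSTRG.32237.1 in an intron of 0610040J01Rik (-0.49, SE 0.13) and MSTRG.4149.1 near Gm4767 (-0.86, SE 0.27) were also called lower, the second on at most 13 reads in a library. The other 3 lower calls, MSTRG.18094.1 in Zfand3, MSTRG.26854.1 over the end of Sh3d19 and MSTRG.35959.1 near Rad18, differed by -0.36 to -0.42 and were the smallest of the 16. They are named here after their values were seen. In the same 8 fits the call was lost in 3 for MSTRG.32237.1 and in 7 for MSTRG.4149.1 and MSTRG.35959.1. It was lost in 6 for MSTRG.18094.1 and MSTRG.26854.1.

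The balance of these calls depended on the scaling of the libraries. With each library divided by its median ratio to the average library, which moved the median of all tested features from -0.16 to -0.0015, 17 models were called, 15 higher and 2 lower, in place of 7 and 9, and 9 of the 16 calls were the same models. The 7 that were lost were all among the lower calls, and MSTRG.21790.19 and MSTRG.6917.1 were the lower calls that were kept. With the same scaling and without high-fat library 4, 11 were called, 8 higher and 3 lower, 10 of them among the 16. The count was 9 without high-fat library 4 or without ordinary-feed library 3, and 10 without ordinary-feed library 2. MSTRG.16066.11 and MSTRG.6917.1 were called under every alternative that tested them.

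**Figure D4:**
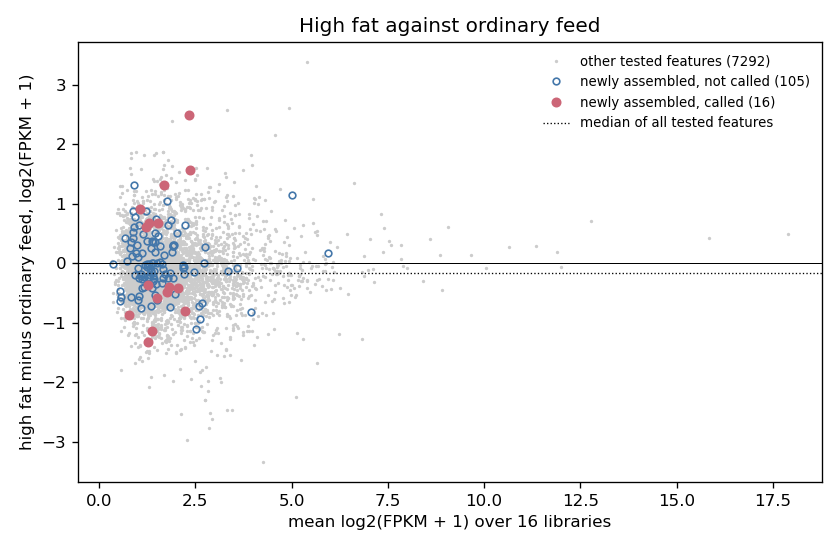
Difference between high-fat and ordinary feed on the log2(FPKM + 1) scale (vertical axis) against mean log2(FPKM + 1) over 16 libraries (horizontal axis), 1 point per tested feature, with newly assembled models as circles, filled where called. The 16 called models lie on both sides of 0 among the other features, with MSTRG.16066.11 the highest, and the dotted line is the median of all tested features.

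Resveratrol with high-fat feed against high-fat feed alone asked what the drug went with on that diet. By limma 0 of 121 models were called, against 0.0809% of all tested features. An unadjusted p below 0.05 was found in 20 models (16.5%, against 16.2% of all tested features). The groups did not overlap in 7 models (7.93% of all features). The model with the smallest adjusted p was MSTRG.21777.1 (0.11), followed by MSTRG.5260.1 (0.111) and MSTRG.16066.11 (-2.18, SE 0.53, adjusted p = 0.113). Without resveratrol library 4, 1 model was called, MSTRG.11329.1, lower by -1.39 (SE 0.27, adjusted p = 0.0394).

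MSTRG.21777.1, at chr19:39262434-39264250, lies in the pseudogene Cyp2c53-ps and 5.16 kb from Cyp2c29, a cytochrome P450 gene of the drug-metabolizing 2C family. It was at 0, 1.49, 0 and 1.02 FPKM on ordinary feed, at 4.28, 1.80, 0.643 and 0.536 on high-fat feed and at 15.99, 14.7, 8.19 and 13.6 with resveratrol. With metformin 1 library stood at 12.3 and the others at 1.00, 0.383 and 2.91. All 4 resveratrol values exceeded every value of ordinary and high-fat feed, and metformin library 1 lay among them.

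The resveratrol difference of MSTRG.21777.1 was 3.20 (SE 0.59, adjusted p = 0.0377 by limma) against ordinary feed, where it was called, and 2.48 (SE 0.59) against high-fat feed, where it was not. The comparisons share the resveratrol libraries. An Ensembl transcript of the pseudogene, with a mean of 1.33 FPKM with resveratrol and 0.130 on ordinary feed, was too low to be tested.

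MSTRG.5260.1 touches exons of Camk2b, the beta subunit of a calcium-dependent kinase, at chr11:6005682-6012919. It was at 10.3, 12.5, 15.1 and 8.04 FPKM on ordinary feed, at 3.52, 5.14, 6.42 and 13.9 on high-fat feed, at 1.12, 1.503, 0.832 and 2.03 with resveratrol and at 6.88, 9.18, 6.98 and 1.56 with metformin. Resveratrol libraries were low throughout, and only metformin library 4 came down to their level. The difference was -2.39 (SE 0.41, adjusted p = 0.0264 by limma) between resveratrol and ordinary feed, where it was called, and -1.68 (SE 0.41) between resveratrol and high-fat feed.

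Metformin with high-fat feed against high-fat feed alone gave 0 called models by limma, against 0.027% of all features. An unadjusted p below 0.05 was found in 10 models (8.26%, against 7.47% of all features). The groups did not overlap in 4 models (3.45% of all features). MSTRG.9831.1 had the smallest adjusted p (-0.97, SE 0.20, adjusted p = 0.118). It stood at 3.12, 1.91, 3.83 and 4.12 FPKM on high-fat feed and 1.68, 1.44, 0.735 and 0.762 with metformin, against 1.47, 1.43, 1.61 and 1.82 on ordinary feed. The metformin values all lay below the high-fat values, and without high-fat library 2 the model was called (-1.14, SE 0.18, adjusted p = 0.0373). Resveratrol against metformin gave 0 called models by limma, against 0 of all features (0%), with a smallest adjusted p of 0.765. In this comparison 10 models had an unadjusted p below 0.05 (8.26%, against 6.35% of all features), and 2 models were without overlap (4.76% of all features).

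The drug groups were also set against ordinary feed, a comparison in which diet and drug differ together. With resveratrol 3 models were called, against 0.283% of all features: MSTRG.21777.1 and MSTRG.17600.1 higher (1.02, SE 0.18, for the latter; 0.148% of all features were called higher) and MSTRG.5260.1 lower (0.135% called lower). The groups did not overlap in 19 models (9.93% of all features). The count was 0 without any 1 of the 4 resveratrol libraries or without ordinary-feed library 2 or 3, and it was 1 without ordinary-feed library 1 (a model not among the 3) or 4 (MSTRG.5260.1). MSTRG.21777.1 and MSTRG.17600.1 were thus lost in each of the 8 fits without 1 library of these groups, and MSTRG.5260.1 in 7. With metformin MSTRG.25288.3 in Hnf4a was called higher (1.73, SE 0.34, adjusted p = 0.0491 by limma), against 0.297% of all features called and 0.0944% called higher, and 16 models did not overlap (13.4% of all features). Without metformin library 1, 2 or 4 or ordinary-feed library 2 or 3 the count was 0, and without metformin library 3 or ordinary-feed library 4 it was 2. MSTRG.25288.3 itself was lost in 7 of the 8 fits and kept only without ordinary-feed library 4.

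Few models lay at genes of the lists drawn up for liver. The lists are partial and leave out genes named above, such as Ugt2a3 and Cyp2c38. Of 10 lists of liver genes, covering lipid synthesis, cholesterol, fatty acid oxidation, glucose and insulin signalling, bile acid and drug metabolism, secreted proteins, splicing, clock, stress and immune genes, 3 had a gene overlapped by a model. The cholesterol list (35 genes) had MSTRG.1548.1 at Insig2, lower on high-fat feed as given above. The glucose list (28 genes) had MSTRG.4290.1 at Igf1, the liver-made growth factor, between 0.621 and 1.65 FPKM in the 16 libraries and not called (-0.17, SE 0.13). From the list of secreted proteins (43 genes), the models at Crp, Serpina1a and Serpina1b are given, and neither was called for high-fat feed by limma. MSTRG.9776.37 across Serpina1a and Serpina1b differed by 0.17 (SE 0.21, adjusted p = 0.60). MSTRG.2406.1 over Crp stood at 1.62 to 2.94 FPKM on ordinary feed and 1.92 to 3.58 on high-fat feed (0.29, SE 0.17), with overlapping groups.

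The 23 models that did not meet the condition for testing had mean levels from 0.0302 to 2.84 FPKM, with a median of 0.562, and 10 of them were at 0 in at least 11 libraries. The lowest were MSTRG.32561.6 at Ugt2a3, MSTRG.45597.2 on a scaffold outside the chromosomes and MSTRG.17461.1 at 1700010I14Rik. Each had reads in 1 library only, resveratrol library 2 (0.483 FPKM), high-fat library 4 (0.803 FPKM) and resveratrol library 4 (1.04 FPKM) respectively, on at most 5 reads. The highest mean, 2.84 FPKM, belonged to MSTRG.21812.1, which came from ordinary-feed library 3 alone.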

How the data were processed

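The authors deposited, for each library, FPKM of 51024 listed transcripts with an interval and a length, per the file headers. Bowtie 0.12.2, Cufflinks 2.1.1 and the build GRCm38 (mm10) are named in the submitters' processing notes, without role or order. Neither the labels nor the headers name the assembler of the MSTRG models, the libraries it was run on or the handling of strand. FPKM times length came out as whole reads, within 0.05 read, for at least 99.998% of values in every library, which gave the depths of 17249328 to 31113739 reads per library.

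Ensembl transcripts were summed per GENCODE M21 gene, features with 1 FPKM in at least 4 libraries were kept (7413 of 49988: 6393 NONCODE, 899 Ensembl genes, 121 models), and log2(FPKM + 1) was fitted with limma 3.58.1 (R 4.3.3, trend, 1 fit of 16 libraries, 12 residual degrees of freedom), with 6 comparisons, a moderated F and Benjamini-Hochberg adjustment. The fit was tested on simulated data. Libraries were grouped by the diet label. Positions against coding genes ignore strand, and Ensembl identifiers matched GENCODE for 6306 of 6326. The models named were those called (up to 6 each way in a comparison), the 10 highest, those of loci with 3 or more models, the 5 with the widest range, the 3 lowest and those at genes of the lists. Results at 2 genes are not reported here. Members and lists were chosen with earlier results of these data known. Alternatives were pseudocount 0.1, no filter, a filter of 5 FPKM, median-ratio scaling (also without high-fat library 4), sums per locus, Ensembl transcripts not summed, only the 2 groups compared, each library left out and, added after seeing the data, a block on the last number of the title.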

Additional observations from a re-analysis of the deposited data

Results flagged for a closer look

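In 32 of 198 groups of 4 libraries with any spread, over the 55 models named by the rules, 1 library lay far from the other 3, that is, its gap to the nearest exceeded Dixon's 95% critical share of the group's range. Chance flags about 1 in 20 such groups, here 16.2% were flagged, and models at 0 in most libraries contribute many of them. The causes were not tested. Of the 32, 26 are given and 6 are not reported here.

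On ordinary feed, library 1 was highest for MSTRG.16066.11 (7.12 FPKM, others at most 0.851), and lowest for MSTRG.40176.19 (1.21 FPKM). Library 2 was highest for MSTRG.6917.1 (4.62 FPKM) and MSTRG.9776.37 (69.2 FPKM). Library 4 was highest for MSTRG.3786.3 (24.7 FPKM), MSTRG.30945.4 (2.22 FPKM), MSTRG.40176.42 (0.961 FPKM) and MSTRG.40176.44 (1.24 FPKM).

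On high-fat feed, library 4, which stood apart over all features, was highest for MSTRG.30945.1 (10.8 FPKM, others 1.97 to 3.12), MSTRG.31087.2 (10.2 FPKM), MSTRG.31087.4 (4.57 FPKM) and MSTRG.45597.2 (0.803 FPKM). Library 2 was highest for MSTRG.3786.2 (11.4 FPKM) and MSTRG.40176.23 (1.44 FPKM).

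With resveratrol, library 4 was highest for MSTRG.21812.2 (67.4 FPKM, others 32.6 to 38.1), MSTRG.4149.1 (1.83 FPKM), MSTRG.40176.23 (1.46 FPKM) and MSTRG.17461.1 (1.04 FPKM). Library 2 was highest for MSTRG.55.1 (17.1 FPKM), MSTRG.3786.1 (11.9 FPKM), MSTRG.40176.42 (2.06 FPKM) and MSTRG.32561.6 (0.483 FPKM). With metformin, the highest were library 2 for MSTRG.25145.1 (4.64 FPKM), library 3 for MSTRG.3786.1 (3.18 FPKM) and MSTRG.6917.1 (2.54 FPKM), and library 4 for MSTRG.16066.11 (8.48 FPKM).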

How the results depend on the processing

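No call reversed its direction in any alternative that was run. The count of 8 models called over the 4 groups became 4 with a pseudocount of 0.1, 0 with no filter, 3 with a filter of 5 FPKM (18 models tested), 5 with median-ratio scaling and 5 with that scaling after leaving out high-fat library 4. The count of 16 for high-fat against ordinary feed became 3 with no filter, 3 with the filter of 5 FPKM and 7 with only the 2 groups in the fit. For resveratrol against ordinary feed the count of 3 became 0 with no filter and 5 with the 2 groups alone. For metformin against ordinary feed the count of 1 became 0 with a pseudocount of 0.1, 0 with no filter, 0 with the 2 groups alone and 4 where high-fat library 4 was left out and the median-ratio scaling applied. With no filter 49988 features enter the adjustment; the causes of the other changes were not tested.

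Leaving out 1 library at a time gave 0 to 9 models over the 4 groups, 9 to 19 for high fat against ordinary feed, 0 to 1 for resveratrol and 0 to 1 for metformin against high fat, 0 to 0 between the drugs, 0 to 1 for resveratrol and 0 to 2 for metformin against ordinary feed. Of the 16 high-fat calls 7 passed in each of the 8 fits without 1 library of those groups. Sums per locus and unsummed Ensembl transcripts kept every count within 1.5 times. Depth limits low models: 38 had a median under 10 reads.

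With the last number of each title as a replicate block, chosen after seeing the data, the counts were 0 over the 4 groups, 4 for high fat (3 higher and 1 lower, all among the 16), 0 for resveratrol and 0 for metformin against ordinary feed. For libraries of different groups with the same last number, the correlations of deviations from the group mean were also taken over features. They had a median of -0.032 (-0.19 to 0.10) in 20 pairs, against 0.012 (-0.15 to 0.20) in the 76 other pairs. Each library enters several pairs, and what the number marks is not given. These libraries share only a number, so they are not taken as pairs. The first number could not serve as a block for high-fat feed, whose 4 libraries hold 1 value of it that no other group has.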
